A study of Homo sapiens with 6 samples.

Results

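The 40 genes described here encode the machinery of mitosis and of the G2/M transition, namely cyclins, mitotic kinases, kinesins, checkpoint proteins and centromere proteins. They were picked by gene symbol, with earlier results of these data known, from the tables of 6 RNA sequencing libraries of DU145 cells, and all 40 were found among 23062 identifiers. DU145 is a human prostate cancer line, labelled as wild type. In the control group (n = 3) the cells were kept in MEM medium for 48 h, and in the TAX group (n = 3) they received taraxasterol, a plant triterpene, at 56 µM, the IC50 dose of the study for this line, for the same time. TAX was dissolved in DMSO while the control is described as medium, so the solvent and TAX cannot be told apart. The labels do not say whether the replicates were separate cultures, and the p-values measure the spread between these libraries, which may be technical.

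Entry into mitosis is driven by cyclin B bound to the kinase CDK1, and exit from it by the anaphase-promoting complex (APC/C), a ubiquitin ligase that destroys cyclin B and securin once every chromosome is attached to the spindle. The genes of this machinery are transcribed mainly in late S phase, G2 and M, so in a growing culture their mRNA follows the share of cells in those phases. In bulk RNA a smaller share of cells in G2 and M and less mRNA per cell cannot be told apart. MKI67, which encodes the antigen Ki67, and TOP2A, which encodes DNA topoisomerase II alpha, are widely used as proliferation markers in tumors.

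Many promoters of this class share a cell cycle genes homology region (CHR), the site of MuvB complexes with B-MYB or the DREAM repressor, and CCAAT boxes, the site of NF-Y. Windows from 250 bases before to 50 bases after the RefSeq gene start (GRCh38.p14) were matched by symbol for 34 of the 40 genes (not AURKA, BIRC5, TTK, UBE2C, TPX2 and FOXM1). The 5 stretches printed here are the 130 bases before the start of CCNB2 (chr15:59105016-59105145, plus strand), PLK1 (chr16:23678759-23678888, plus strand), CDC20 (chr1:43358851-43358980, plus strand), MKI67 (chr10:128126424-128126553, minus strand) and CCNB1 (chr5:69167020-69167149, plus strand). They are shown because the first 4 carry TTTGAA and CCAAT or its complement. CCNB1, whose groups did not overlap, carries CCAAT and none of the CHR words searched (TTTGAA and TTCGAA). Capitals mark TTTGAA, a CHR word, and CCAAT or its complement ATTGG.
CCNB2: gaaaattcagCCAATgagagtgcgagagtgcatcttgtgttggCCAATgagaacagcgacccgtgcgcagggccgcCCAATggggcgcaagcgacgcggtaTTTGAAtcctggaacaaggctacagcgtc
PLK1: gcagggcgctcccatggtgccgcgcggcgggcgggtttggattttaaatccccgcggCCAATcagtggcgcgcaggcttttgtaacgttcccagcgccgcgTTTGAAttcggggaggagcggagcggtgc
CDC20: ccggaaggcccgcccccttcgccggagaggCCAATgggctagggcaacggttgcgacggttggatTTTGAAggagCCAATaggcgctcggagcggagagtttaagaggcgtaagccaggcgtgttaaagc
MKI67: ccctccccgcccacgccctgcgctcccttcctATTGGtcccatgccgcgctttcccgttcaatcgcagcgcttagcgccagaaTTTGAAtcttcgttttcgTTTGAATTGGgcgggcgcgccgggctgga
CCNB1: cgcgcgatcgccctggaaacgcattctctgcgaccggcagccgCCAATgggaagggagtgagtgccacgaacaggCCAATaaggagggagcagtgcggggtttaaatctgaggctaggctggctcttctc
In CCNB2 and PLK1 the CHR word began 29 bases before the start, and in CDC20 it began 65 bases before it. MKI67 held the CHR word at 47 and at 29 bases before the start, the latter sharing 1 base with an ATTGG. CCNB1 held CCAAT at 87 and 55 bases before its start and neither CHR word in this stretch.

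A CHR word (TTTGAA or TTCGAA, on either strand) was present in at least 1 window of 26 of the 34 genes, or 76.5%, against 15.0% of the 9418 tested genes that have a window and 19.5% of the 27305 genes in the whole table. CCAAT, on either strand, was present in 29 genes, or 85.3%, against 43.4% of the tested genes and 39.7% of the table. Both elements were found in 23 members (67.6%) and in 6.31% of the tested genes and 7.85% of the table. CENPE and KIF2C held neither. Of 62 further mitosis genes with a window, 45 held a CHR word (72.6%), 44 CCAAT (71.0%) and 33 both (53.2%). A high share of these words was thus not particular to the 40 genes. Of 18 regulators of mitotic transcription with a window, 7 held a CHR word (38.9%) and 10 CCAAT (55.6%). Of 38 DNA replication genes with a window, 24 held CCAAT (63.2%) but 2 a CHR word (5.26%). A match is a description of these letters, and no binding was measured. Only these words were searched, so a gene without them is not shown to lack a CHR.

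In GENCODE 29 (GRCh38) the gene positions are CDK1 on chromosome 10 from 60778331 to 60794852, CCNB1 on chromosome 5 from 69167010 to 69178245, BIRC5 on chromosome 17 from 78214186 to 78225636, CDC20 on chromosome 1 from 43358955 to 43363203 and MKI67 on chromosome 10 from 128096659 to 128126385. The deposited values were read as FPKM, a unit per length of the gene and depth of the library, which neither labels nor file headers name. All 40 genes were well expressed in untreated DU145 cells and passed the filter on low values (at least 1 FPKM in 3 or more libraries, 12359 genes). Their mean over the 6 libraries ran from 8.97 FPKM for KIF18A, a kinesin of chromosome alignment, to 158 FPKM for TOP2A, with a median of 44.1 FPKM against 9.75 FPKM for all tested genes. TPX2, CCNB1 and PTTG1 followed TOP2A with 108, 99.4 and 91.4 FPKM. The lowest after KIF18A were the phosphatase CDC25C (10.4 FPKM), the checkpoint protein MAD2L1 (13.3 FPKM) and the kinesin KIF14 (15.2 FPKM). TOP2A did not overlap any other member, as its lowest library had 149 FPKM and the highest value of TPX2 was 116 FPKM, while TPX2 and CCNB1 overlapped.

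Depth is unknown, since no counts were given. The summed FPKM of a library was 322483 in control replicate 3 and 345464 to 363724 in the other 5. The epithelial markers KRT8, KRT18, KRT19, EPCAM and CDH1 lay between 40.7 and 173 FPKM, and their sum was 428 to 545 FPKM without TAX and 555 to 606 FPKM with TAX, a difference whose part in the results was not tested. KLK3 and KLK2 were listed at 0 in all 6 libraries. The sums of 5 fibroblast, 3 leukocyte and 3 endothelial markers did not exceed 2.11, 0.419 and 0.0368 FPKM in any library, and COL1A2, DCN, LUM and CD3E were listed at 0 throughout.

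After 48 h of TAX, no gene of the 40 was called at an adjusted p under 0.05 (limma on log2(FPKM + 1), Benjamini-Hochberg over all tested genes), where 0.477% of all tested genes were called. The smallest adjusted p among them was 0.486. At an unadjusted p under 0.05 there was 1 member, BIRC5, or 2.50%, against 10.1% of all tested genes. BIRC5 lay higher with TAX, as did 7.73% of all tested genes at that threshold. The log2 fold changes of the 40 genes ran from -0.13 for NUSAP1 to 0.24 for CDC20 with a median of 0.067, against 0.054 for all tested genes. Of the members 34 lay above 0 and 6 below, where 69.1% of all tested genes lay above 0. Among the 6254 tested genes within the members' range of mean FPKM, the median was 0.071 and 76.4% lay above 0. With each library centred on its median, or after quantile normalization, the split of the members was 21 against 19.

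For each of the 40 genes the 95% interval of the difference (limma, each gene taken alone) lay within 1.5-fold in both directions, as it did for 96.0% of all tested genes. The intervals reached down to -0.38 for NUSAP1 and up to 0.49 for CDC20 on the log2 scale, where 1.5-fold is 0.585. With control replicate 1 left out, 39 of the 40 intervals stayed within these bounds and the highest reached 0.59. On the linear scale the mean with TAX divided by the mean without it was between 0.917 and 1.18. These values set a bound on the change of each gene and do not show that the groups were alike.

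**Figure D1:**
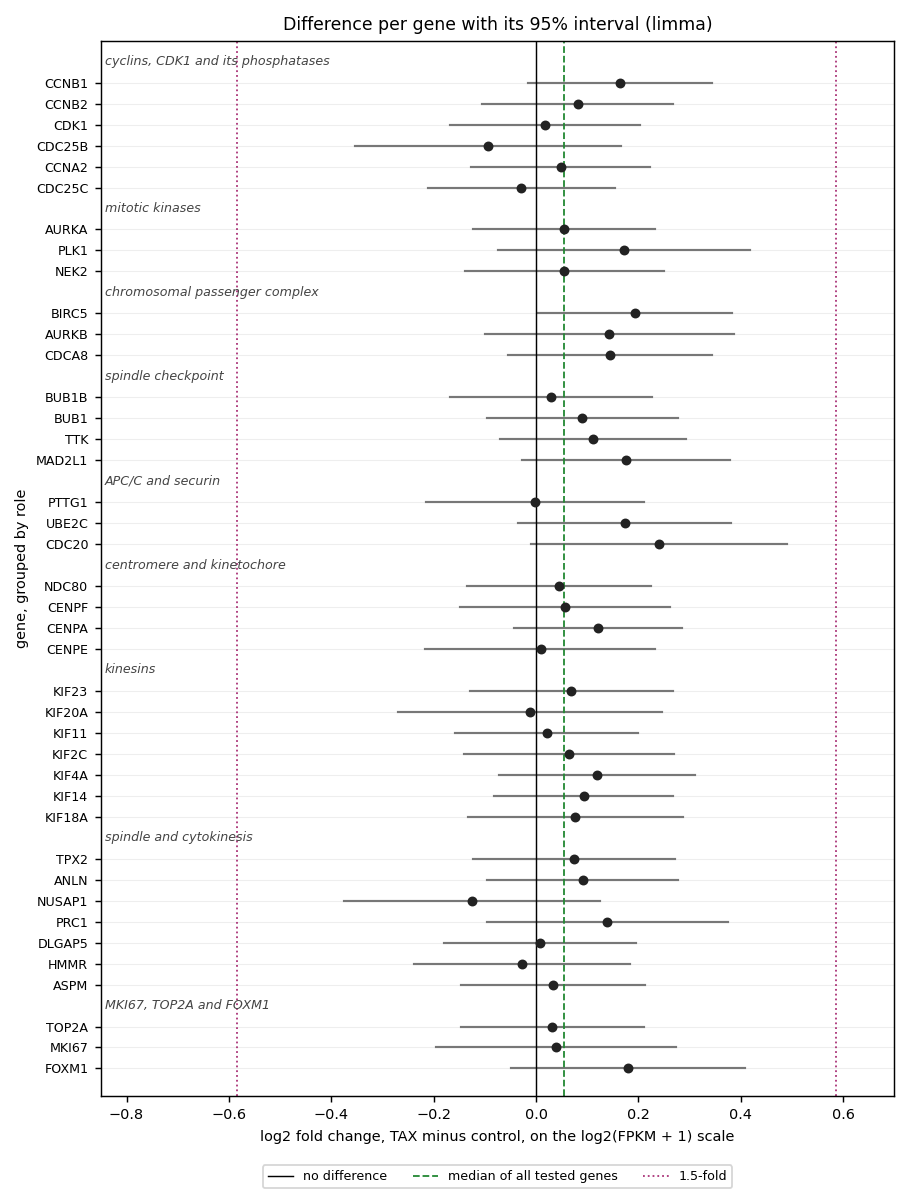
Log2 fold change (TAX minus control, x axis, log2(FPKM + 1) scale) of each of the 40 genes, grouped by role on the y axis, with its 95% limma interval as a bar, over 3 libraries a group. The solid line is 0, the dashed line the median of all tested genes (0.054) and the dotted lines 1.5-fold (0.585), and every bar lies between the dotted lines.

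Among the cyclins and the regulators of CDK1, 4 of 6 genes lay above 0 and 2 below, and none was called. CCNB1, for cyclin B1, had 94.95, 94.0 and 92.0 FPKM without TAX (replicates 1, 2 and 3, in this order here and for the genes that follow) and 102, 112 and 101 FPKM with TAX. All TAX values lay above all control values, with a difference (log2 fold change) of 0.16 (standard error, SE, 0.081, limma adjusted p = 0.525). Its partner CDK1 had 60.6, 60.7 and 67.1 FPKM without TAX and 61.8, 67.6 and 61.3 FPKM with TAX, so that the groups overlapped. The difference of CDK1 was 0.018 (95% interval -0.17 to 0.20), and centring or quantile normalization turned its sign. CCNB2, for cyclin B2, had 68.8, 62.6 and 62.7 FPKM without TAX and 65.4, 73.3 and 66.7 FPKM with TAX, with control replicate 1 above 2 of the TAX libraries (limma adjusted p = 0.761). CCNA2, for cyclin A2, and the phosphatases CDC25B and CDC25C, which remove inhibitory phosphate from CDK1, had differences of 0.048, -0.094 and -0.029. Without control replicate 3, CDC25B was 1 of 2 members with an unadjusted p under 0.05, where 11.3% of all tested genes had one, and lay lower after TAX, with an adjusted p of 0.228 (limma).

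The mitotic kinases PLK1, AURKA and NEK2 lay above 0 and were not called. PLK1, which acts at centrosomes, kinetochores and the cleavage site, had 44.2, 36.2 and 33.1 FPKM without TAX and 41.2, 46.3 and 39.96 FPKM with TAX. Control replicate 1 lay within the TAX values and the other control libraries below them (difference 0.17, SE 0.11, limma adjusted p = 0.621), and the difference of PLK1 was 0.082 without control replicate 3 and 0.29 without control replicate 1. AURKA, for aurora A of the spindle poles, had 86.6, 84.2 and 84.0 FPKM without TAX and 84.9, 94.1 and 85.9 FPKM with TAX. TAX replicate 2 stood above the other 5 libraries of AURKA, which were nearly level, and under centring its difference turned from 0.054 to -0.0040. NEK2, a centrosome kinase, had 32.4 ± 3.17 FPKM without TAX and 33.6 ± 0.414 FPKM with TAX (SD, n = 3 each).

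The chromosomal passenger complex corrects wrong attachments between kinetochores and microtubules, and its 3 members in the list lay at 0.14 to 0.19. BIRC5, for survivin, had 52.0, 51.5 and 52.6 FPKM without TAX and 56.7, 65.9 and 56.8 FPKM with TAX. The control libraries were nearly level and every TAX library lay above them, with TAX replicate 2 highest (difference 0.19, SE 0.085, unadjusted p = 0.0459 and limma adjusted p = 0.486; exact two-sided permutation p = 0.1, the lowest that 3 against 3 can give). The unadjusted p of BIRC5 was above 0.05 with median centring and with quantile normalization, and its difference was 0.12 without TAX replicate 2. AURKB, for the kinase aurora B, had 52.3, 42.7 and 42.3 FPKM without TAX and 47.0, 57.3 and 47.6 FPKM with TAX. CDCA8, for borealin, had 27.3, 23.9 and 23.8 FPKM without TAX and 25.8, 30.0 and 27.4 FPKM with TAX. In AURKB and CDCA8 control replicate 1 lay among the TAX values (limma adjusted p = 0.673 and 0.605).

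The spindle checkpoint delays anaphase until all kinetochores are attached. MAD2L1, which inhibits CDC20, had 12.3, 12.5 and 12.4 FPKM without TAX and 13.2, 16.2 and 13.2 FPKM with TAX, without overlap (difference 0.18, SE 0.092, limma adjusted p = 0.543). The difference of MAD2L1 was 0.083 without TAX replicate 2. TTK, the kinase MPS1 that starts the checkpoint signal, had 20.6, 17.8 and 18.2 FPKM without TAX and 20.02, 20.9 and 20.3 FPKM with TAX. The checkpoint genes BUB1 and BUB1B had differences of 0.090 and 0.029. All 4 lay above 0 and none was called.

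Of the genes of the APC/C route, CDC20, its activator in mitosis, had the largest difference of all 40 when every library was used. CDC20 had 75.1, 67.0 and 56.1 FPKM without TAX and 73.9, 85.6 and 74.2 FPKM with TAX. The control libraries were spread widely and the highest lay above 2 TAX libraries (difference 0.24, SE 0.11, 95% interval -0.010 to 0.49, limma adjusted p = 0.4998; exact two-sided permutation p = 0.3). The difference of CDC20 was 0.34 without control replicate 1 and 0.13 without control replicate 3, where that of BIRC5 was larger at 0.20. UBE2C, the ubiquitin-conjugating enzyme of the APC/C, had 94.0, 80.6 and 77.2 FPKM without TAX and 92.5, 99.0 and 91.9 FPKM with TAX. PTTG1, for securin, which holds separase inactive, had 91.6 ± 9.86 FPKM without TAX and 91.2 ± 5.27 FPKM with TAX (SD, n = 3 each).

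At the centromere, CENPA, the histone H3 variant that marks it, had 20.2, 20.4 and 20.4 FPKM without TAX and 22.3, 23.0 and 21.2 FPKM with TAX. The groups of CENPA did not overlap, and its difference was 0.12 (SE 0.074, limma adjusted p = 0.604). CENPF, a protein of the outer kinetochore, had 51.3, 45.9 and 41.9 FPKM without TAX and 49.2, 45.3 and 49.8 FPKM with TAX, all TAX values lying between the control extremes. Its difference of 0.056 turned sign under centring and quantile normalization. The kinetochore motor CENPE and the microtubule-binding NDC80 had differences of 0.0090 and 0.045.

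Of the 7 kinesins, motors that move along or take apart microtubules, 6 lay above 0 and 1, KIF20A, below it at -0.011. KIF4A, a motor on chromosome arms and the central spindle, had 23.9, 21.5 and 19.8 FPKM without TAX and 24.2, 23.1 and 23.6 FPKM with TAX. KIF14, which acts in cytokinesis, had 15.4, 14.2 and 14.4 FPKM without TAX and 16.3, 14.8 and 16.1 FPKM with TAX. In both, control replicate 1 lay within the TAX values (limma adjusted p = 0.659 and 0.700). The depolymerase KIF2C and the motors KIF11, KIF18A and KIF23 lay between 0.021 and 0.077. KIF11, which pushes the spindle poles apart, had 30.5 ± 2.204 FPKM without TAX and 30.9 ± 0.532 FPKM with TAX (SD, n = 3 each).

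Among the 7 genes of spindle assembly and cytokinesis, PRC1, which bundles the microtubules of the central spindle, had 51.6, 53.6 and 41.9 FPKM without TAX and 56.3, 56.2 and 49.2 FPKM with TAX. Replicate 3 was the lowest library of PRC1 in both groups, and the groups overlapped (limma adjusted p = 0.673). NUSAP1, a microtubule-binding protein, had 103, 86.2 and 86.2 FPKM without TAX and 71.9, 91.8 and 88.8 FPKM with TAX. TAX replicate 1 alone lay below all controls, and the difference of NUSAP1 was -0.13 (SE 0.11, limma adjusted p = 0.715), or -0.018 without that library and -0.043 without control replicate 1. TPX2, the activator of AURKA, had 105 ± 9.78 FPKM without TAX and 110 ± 2.25 FPKM with TAX (SD, n = 3 each). ANLN, for anillin of the contractile ring, lay at 0.091, ASPM at 0.033, DLGAP5 at 0.0080 and HMMR at -0.028.

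MKI67 had 76.5, 61.9 and 58.0 FPKM without TAX and 63.9, 67.4 and 69.2 FPKM with TAX. Its control libraries included the highest and the 2 lowest of the 6 values, so that every TAX value lay inside the control range (difference 0.039, 95% interval -0.20 to 0.27, limma adjusted p = 0.915; exact two-sided permutation p = 0.9). TOP2A had 160, 158 and 149 FPKM without TAX and 161, 155 and 162 FPKM with TAX, also with overlap (limma adjusted p = 0.907). For both MKI67 and TOP2A, centring and quantile normalization turned the sign. FOXM1, the transcription factor that activates many G2/M genes, had 39.7, 35.2 and 29.8 FPKM without TAX and 38.0, 40.1 and 40.2 FPKM with TAX. Control replicate 1 of FOXM1 lay among the TAX values and the other 2 below them (difference 0.18, SE 0.10, limma adjusted p = 0.573), and its difference was 0.28 without the former and 0.074 without control replicate 3.

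**Figure D2:**
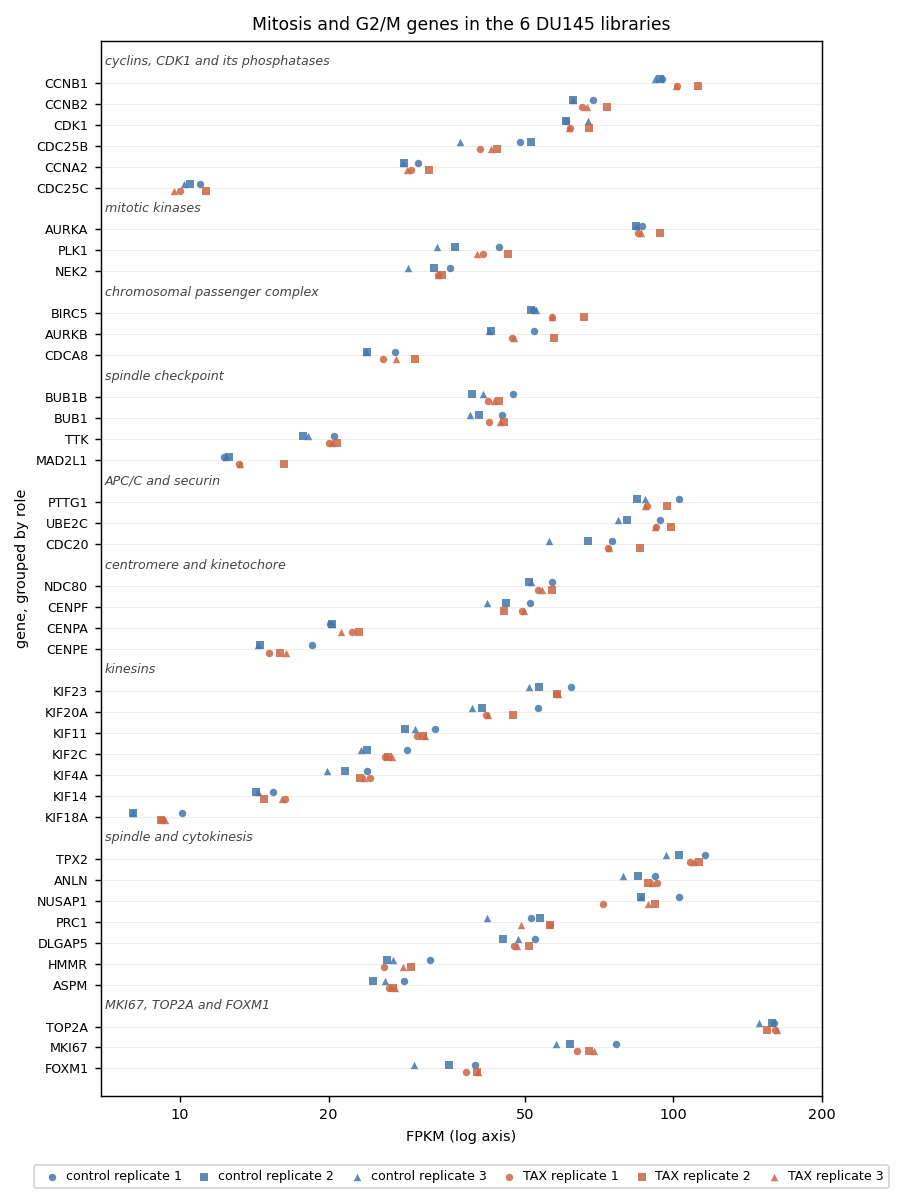
FPKM (x axis, log scale) of each of the 40 genes in each library, grouped by role on the y axis. Blue marks are the 3 control and orange marks the 3 TAX libraries, shaped by replicate number, and CCNB1, BIRC5, MAD2L1 and CENPA are the 4 genes whose groups do not overlap.

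The groups did not overlap for 4 of the 40 genes, CCNB1, BIRC5, MAD2L1 and CENPA. All 4 were higher in TAX-treated cells, where 14.6% of all tested genes were higher and 3.34% lower without overlap (17.9% in either direction). For 15 genes every TAX value lay inside the control range, and for 28 genes the control range was wider than the TAX range. Neither count was set beside its share of all tested genes, so neither can be read as particular to the 40. The median of all tested genes was also low in control replicate 3 (-0.12). With median centring or quantile normalization, 0 of the 40 were without overlap.

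The 40 genes varied together between libraries, within each group. Their summed level was 2134, 1922 and 1849 FPKM without TAX and 2008, 2148 and 2040 FPKM with TAX, by replicate number. Control replicate 1 and TAX replicate 2 were thus the highest, and the group sums of 1969 ± 148 and 2065 ± 73.7 FPKM (SD, n = 3 each) overlapped. Control replicate 1 was the highest control library for 34 of the 40 genes and control replicate 3 the lowest for 24. In the TAX group, replicate 2 was highest for 26 genes and replicate 1 lowest for 25.

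Relative to the mean of each gene over the 6 libraries, the median member stood at 0.087, -0.086 and -0.12 on the log2 scale in control replicates 1, 2 and 3 and at -0.0050, 0.082 and 0.028 in the TAX replicates. The median of all tested genes stood at 0.023, 0.017 and -0.12 in the control and at 0.027, 0.035 and 0.023 in the TAX replicates. The low position of the members in control replicate 3 was thus that of all genes, while in control replicates 1 and 2 they departed from all genes by 0.064 and -0.10. The DNA replication genes moved between the libraries in the same order within each group. Their median stood at 0.083, -0.049 and -0.083 in the control and at -0.040, 0.113 and 0.0020 in the TAX replicates. So did the median of 75 other mitosis genes, at 0.086, -0.068 and -0.086 in the control and at -0.013, 0.083 and 0.016 in the TAX replicates.

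**Figure D3:**
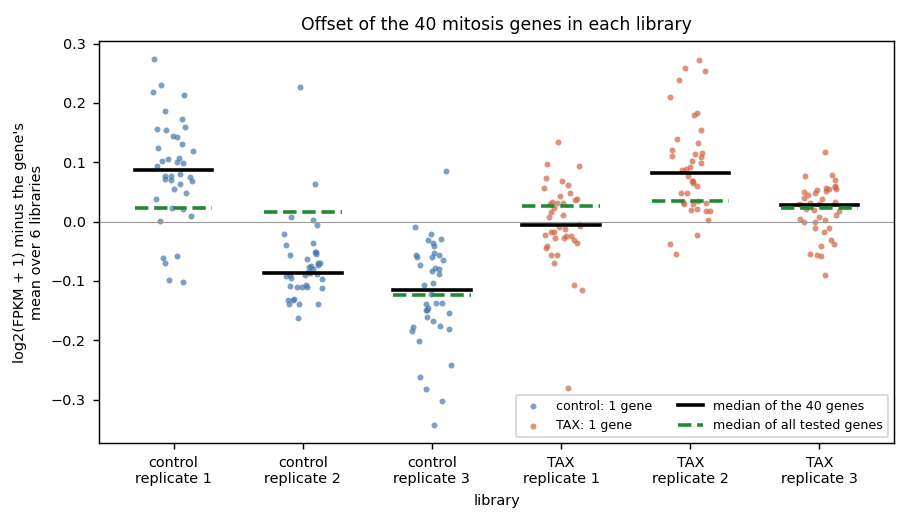
Each point is 1 of the 40 genes, as log2(FPKM + 1) minus the mean of the gene over the 6 libraries (y axis), in each library (x axis), with blue for control and orange for TAX. The solid bar is the median of the 40 genes and the dashed bar that of all tested genes, and the solid bars are highest in control replicate 1 (0.087) and TAX replicate 2 (0.082).

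As a description, Pearson's r over the 6 libraries was above 0 for 728 of the 780 pairs of members, and its mean over pairs was 0.560, against 0.218 over all pairs of tested genes. With group means taken off, the mean was 0.551 against 0.240. The points share libraries and their depth. PLK1, TPX2 and BUB1 followed the mean of the other 39 genes most closely (r = 0.980, 0.976 and 0.975), and CDK1 did not (r = -0.128), nor did CDC25B with 0.315. The mean r was 0.512 among the 45 DNA replication genes and 0.388 among 75 other mitosis genes. With group means taken off, the mean r of these lists was 0.555 and 0.345, beside 0.551 for the members.

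The count of genes without overlap changed most with control replicate 1. Without it, 31 of the 40 genes had no overlap between 2 control and 3 TAX libraries, where 30.2% of all tested genes had none. In that comparison 4 members had an unadjusted p under 0.05, namely CDC20, FOXM1, PLK1 and UBE2C, against 10.8% of all tested genes, and 0 were called after adjustment. The median log2 fold change of the 40 genes was then 0.13, against 0.078 for all tested genes. With any other library left out, 4 to 7 members were without overlap, where 24.6% to 31.5% of all tested genes were, and 0 to 2 had an unadjusted p under 0.05, where 6.30% to 13.3% of all tested genes did. No member was called at an adjusted p under 0.05 in any of these 6 comparisons.

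Of 75 further mitosis genes, including condensins, kinetochore and cytokinesis genes, 64 lay above 0 and 11 below, with a median of 0.062. None was called, and 1 had an unadjusted p under 0.05 (1.33%, against 10.1% of all tested genes). It was PKMYT1, the kinase that puts inhibitory phosphate on CDK1. PKMYT1 had 10.1, 10.4 and 11.1 FPKM without TAX and 11.4, 12.8 and 12.2 FPKM with TAX, without overlap (difference 0.19, SE 0.079, limma adjusted p = 0.465). H2AZ1, for a histone H2A variant and next by p, had 230, 288 and 296 FPKM without TAX and 312, 334 and 304 FPKM with TAX (limma adjusted p = 0.508).

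Of 21 genes listed as regulators of mitotic transcription (MuvB, E2F, RB and NF-Y proteins and partners), 18 lay above 0 and 3 below. None was called, and 2 of the 21 (9.52%) had an unadjusted p under 0.05, near the 10.1% of all tested genes. NFYB, a subunit of the CCAAT-binding NF-Y, had 14.5, 15.4 and 15.7 FPKM without TAX and 12.7, 13.2 and 13.0 FPKM with TAX. Every TAX value of NFYB was below every control value (difference -0.22, SE 0.075, limma adjusted p = 0.373). E2F7, a repressor of the E2F family, had 3.75, 3.72 and 3.68 FPKM without TAX and 4.34, 4.36 and 4.38 FPKM with TAX, close together within each group and without overlap (difference 0.18, SE 0.074, limma adjusted p = 0.437).

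For the DNA replication genes, the nearest other arm of the cell cycle, 32 of 45 lay above 0 and 13 below, with a median of 0.050. Of them 0 had an unadjusted p under 0.05, against 10.1% of all tested genes. RFC2, of the clamp loader, and TK1, for thymidine kinase, had the smallest p (limma adjusted p = 0.503 and 0.539). The intervals of all 75, 21 and 45 genes lay within 1.5-fold, as did 96.0% over all tested genes. The groups did not overlap for 11 of the 75, 5 of the 21 and 4 of the 45, where 17.9% of all tested genes had no overlap. Whether the 4 lists differed from each other was not tested.

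**Figure D4:**
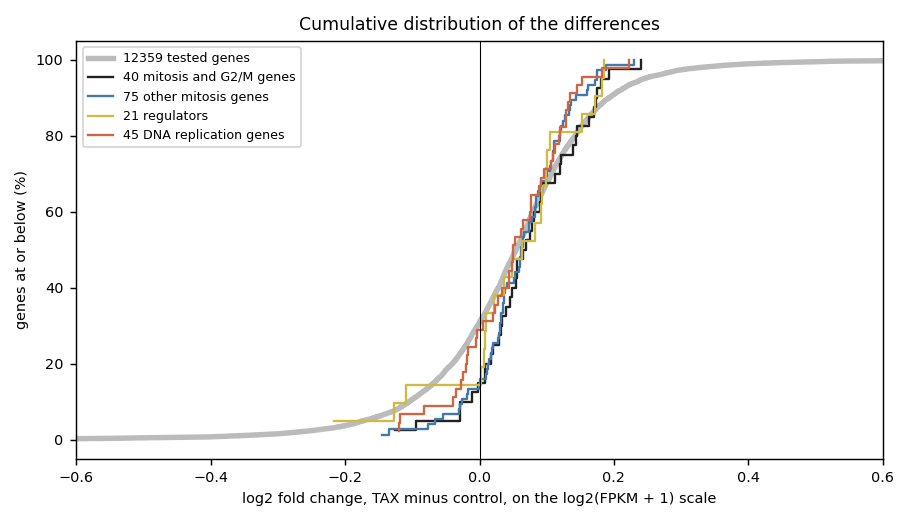
Cumulative share of genes (y axis, percent) at or below a log2 fold change (x axis, TAX minus control, drawn without the extremes) for all 12359 tested genes in grey and 4 gene lists in color. The lists cross the 50% line between 0.050 and 0.067, beside 0.054 for all tested genes.

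By promoter, the 23 members with both a CHR word and CCAAT had a median difference of 0.069 (range -0.13 to 0.24), and the 11 members that lacked at least 1 of them had 0.048 (range -0.011 to 0.16), so the ranges overlapped. For 16 of the 40 genes exons overlap those of another gene in GENCODE 29 (GRCh38), and the strand setting of the quantification is not given in the sources used here. On the same strand, CENPA shares exons with SLC35F6, NUSAP1 with AC087721.2 and BUB1B with BUB1B-PAK6 (up to 16.4, 4.50 and 0.0687 FPKM). PRC1 does so with AC068831.7, which has no value here. Among those on the opposite strand, KIF20A shares exons with BRD8 and CDC23 (up to 31.5 and 18.6 FPKM). CDC25C shares them with FAM53C, KIF4A with PDZD11 and CCNA2 with EXOSC9 (up to 24.4, 28.7 and 22.2 FPKM). The division of reads for these genes is uncertain. KIF4B and PTTG2, near copies of KIF4A and PTTG1, did not exceed 0.131 and 0.0672 FPKM.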

How the data were processed

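RNA of 3 control and 3 TAX-treated DU145 samples was sequenced after isolation with Trizol. Each library has its own table of values by gene as deposited by the authors, read as FPKM since the values are decimals whose sums differ between libraries. The submitters' processing notes name HISAT2 2.2.0, StringTie 2.1.2 and GRCh38 without a role, and annotation and filters are not given in the sources used here. Depth is unknown, so no interval from counting can be given.

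Genes with at least 1 FPKM in 3 or more libraries were compared on log2(FPKM + 1), a scale that understates changes of low genes, with limma 3.58.1 in R 4.3.3 (trend, no covariate), Benjamini-Hochberg adjustment and 95% moderated intervals. The limma fit was tested on simulated data. Exact permutation tests enumerated all 20 labelings. Members and lists were chosen with earlier results of these data known. Values per library are printed for 9 core members, for members with an unadjusted p under 0.05 and for the 2 members of each role with the smallest p (21 in all), and of each other list the 2 genes with the smallest p are named. CDC25B, NEK2, PTTG1, KIF11 and TPX2 were given added values after these were seen. Gene overlaps came from GENCODE 29 and promoter windows from RefSeq. Alternatives were another pseudocount, other filters, quantile normalization, median centring, limma without trend, a replicate block and leaving out each library.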

Additional observations from a re-analysis of the deposited data

How the results depend on the processing

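No member was called at an adjusted p under 0.05 in any of the 13 alternatives. The median log2 fold change of the members minus that of all tested genes was 0.012 in the comparison reported. It ran from -0.028 without control replicate 2 to 0.050 without control replicate 1, so its sign was not stable. Each alternative moved it by less than 0.066. That value is the SD, between libraries of 1 group, of the members' median offset from all tested genes. The number of members with an unadjusted p under 0.05, 1 in the comparison reported, was 2 without a filter on low values (9.14% of all tested genes), 0 after quantile normalization (11.8%), 0 after median centring (12.1%) and 0 with a replicate block (7.86%). Leaving out 1 library gave 0 to 4 such members (6.30% to 13.3% of all tested genes). The number without overlap, 4 in the comparison reported, was 0 after quantile normalization (17.9% of all tested genes) and 0 after median centring (18.7%), and 4 to 31 with 1 library left out (24.6% to 31.5%), the highest without control replicate 1 (30.2%). Deviations from group means did not rise and fall together in same-numbered libraries (r -0.117, -0.333 and -0.171). Pairs with unlike numbers had r from -0.167 to 0.292. Such deviations sum to 0 within each group of 3, so these r cannot tell whether the samples were paired. Over all genes the replicate block gave 26 calls in place of 59. Of 273 single-gene values for the 21 named members, 258 kept direction and call, 0 became calls and 15 changed sign. Under quantile normalization the log2 fold changes that changed sign were -0.064 for CDK1, -0.013 for AURKA, -0.0070 for CENPF, -0.037 for MKI67 and -0.040 for TOP2A, and under median centring -0.040, -0.0040, -0.0010, -0.019 and -0.026 in the same order. With 1 library left out, CDK1 ranged from -0.027 to 0.065, CENPF from -0.013 to 0.13 and MKI67 from -0.042 to 0.16. The cause of these changes was not tested.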
